A study of Mus musculus with 6 samples.

Results

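Treatment with an antibody against PD-1 was compared with treatment with control IgG in mouse melanoma tumours profiled by single-cell RNA sequencing. The comparison took every library of the series, 3 with anti-PD1 against 3 with IgG, paired within 3 implanted lines. Of 43929 deposited cell barcodes, 43843 had at least 500 transcript molecules (counted as unique molecular identifiers, UMIs), at least 300 detected genes and at most 20% mitochondrial UMIs. Of these, 23297 came from anti-PD1 and 20546 from IgG tumours.

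All 3 lines were Yumm5.2, a murine melanoma cell line, and all of them, in both treatment groups, carried a short hairpin against Cdkn2a (shCdkn2a). The control line also carried shControl, and the other lines carried shSlc39a9 hairpin #1 or hairpin #2, here called hairpin 1 and hairpin 2. Under the skin of C57BL/6 mice, 350000 cells were implanted, and once tumours could be felt the mice received 200 µg of anti-mouse PD-1 or of placebo IgG2a into the peritoneum 3 times a week. Tumours were taken at 0.5 cm3, so both groups were sampled at the same tumour size, and the labels used here give neither the time of harvest, nor the animals' age or sex, nor how many tumours went into a library. With 1 library per line and treatment, the 3 pairs are 3 lines and not repeat tumours of a line. A gene's p-value weighs its fitted difference over the pairs against a spread estimated in part from all genes of its class. A gene could therefore be called although 1 line had the opposite sign. Spread between tumours of the same line was not measured.

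PD-1, encoded by Pdcd1, is a receptor that activated T cells display and that dampens their signalling when it binds its ligands PD-L1 (Cd274) or PD-L2 (Pdcd1lg2) on tumour or myeloid cells. Antibodies that block it are given in melanoma to restore T-cell activity. Interferon-gamma released by activated T cells and natural killer cells raises antigen presentation through MHC class I and class II molecules and the chemokines Cxcl9 and Cxcl10 in the cells around them.

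The libraries held 58859821 to 83204249 UMIs, and the per-library numbers of cells kept ran from 5081 to 8858. The 43843 cells kept fell into 24 clusters. After clustering, 0.866% to 1.66% of cells per library were removed as likely doublets, which left 43260 cells. Tumour-line cells were told from host cells by Xist, the RNA of the silenced X chromosome, at 41.5 to 110 CPM (a gene's UMIs scaled to a fixed total per library and class) against at most 3.69 CPM in macrophages, and by 4 Y-linked genes, which summed to at most 2.82 CPM in tumour-line cells and to at least 317 CPM in macrophages. The 12 melanoma markers (Pmel, Mlana, Tyr, Sox10 and others) summed to 73.8 to 81.2 CPM in the tumour-line cells, below the 125 to 150 CPM of the macrophages, so these markers did not set the implanted cells apart. Slc39a9, the hairpin target, stood at 22.9 and 21.2 CPM (IgG and anti-PD1) in tumour-line cells of the control line, at 8.54 and 8.18 CPM in hairpin 1 and at 12.2 and 11.3 CPM in hairpin 2. Cell barcodes were shared between libraries: between any pair of libraries 63.2% to 89.5% of the smaller one's barcodes recurred. In expression, cells under a shared barcode had a median correlation of 0.476 to 0.570, and cells under neighbouring barcodes 0.478 to 0.564. The log UMI totals of cells under a shared barcode correlated at 0.941 to 0.984. These are descriptions, and why barcodes recur was not tested.

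Anti-PD1 tumours had fewer tumour-line cells and more neutrophils as shares of all cells in each of the 3 lines, but no class passed the test. Tumour-line cells made up 65.6% of cells with IgG and 59.7% with anti-PD1 in the control line, 65.9% and 60.3% in hairpin 1, and 67.8% and 67.7% in hairpin 2. The mean log2 ratio was -0.09 ± 0.07 (SD, n = 3 pairs), and the adjusted p was 0.638 (edgeR quasi-likelihood test on cell numbers with the line as a block). Neutrophil-like cells, named from S100a8, S100a9, Csf3r and related markers, went from 4.96% to 5.86%, from 0.774% to 1.41% and from 1.42% to 2.03% in the same order. Their mean log2 ratio was 0.54 ± 0.31 (SD), and the adjusted p over 12 classes was 0.154 by that edgeR test. The share was higher with anti-PD1 in 3 of 3 lines, although lines differed from each other by more than treatments did.

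**Figure D1:**
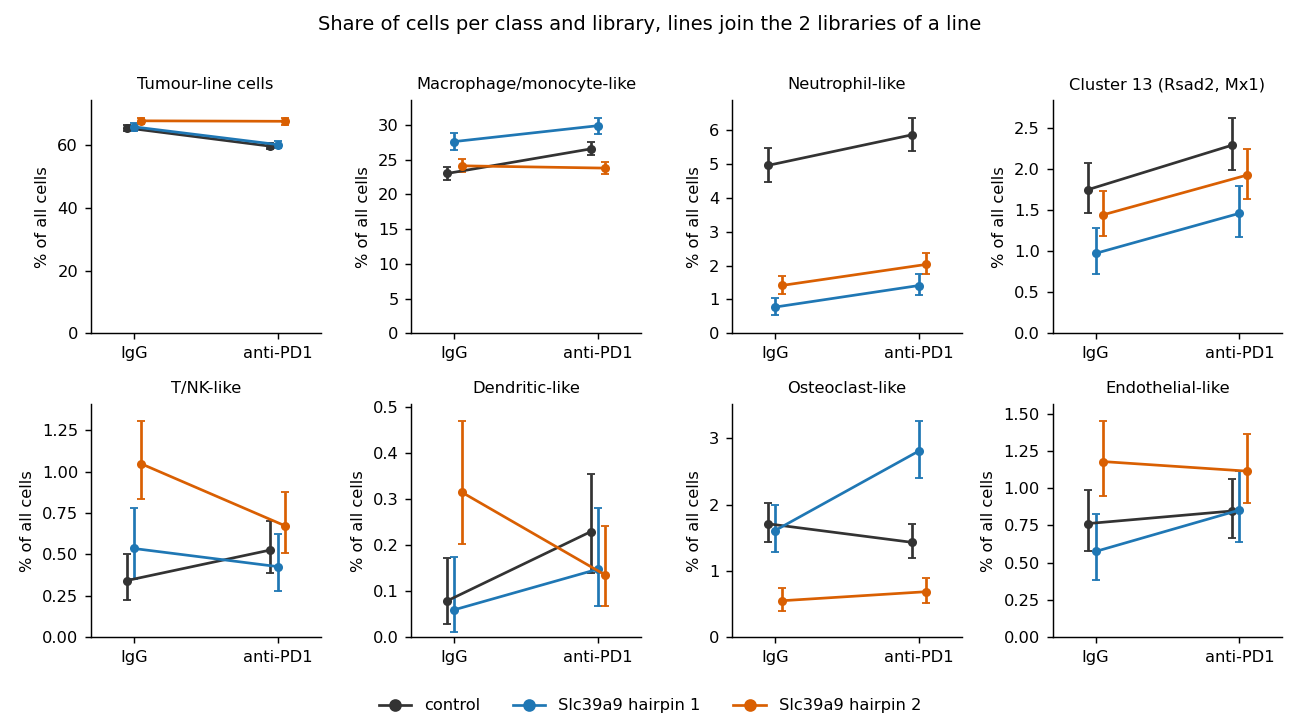
Share of all cells (percent, y axis) in 8 classes, with each line's IgG and anti-PD1 library joined. Bars are exact 95% binomial intervals, which cover counting error only, and the neutrophil and cluster 13 panels rise in all 3 lines while the T/NK panel does not.

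Clusters 13 and 22, both of host cells, had a higher share in all 3 lines too. Cluster 13, led by the antiviral genes Rsad2 and Mx1, held 1.75% and 2.29% of cells in the control line, 0.973% and 1.46% in hairpin 1, and 1.44% and 1.92% in hairpin 2. Cluster 22, led by the resident-macrophage genes Lyve1 and Cd163, held 0.145% and 0.344%, 0.0993% and 0.197%, and 0.131% and 0.159%, from 5 to 30 cells a library. Both had an adjusted p of 0.154 by the edgeR test, and with 3 pairs an exact sign-flip test cannot go below p = 0.25 (two-sided). Macrophage/monocyte-like cells, the largest host class, stood at 23.01% and 26.6%, 27.6% and 29.9%, and 24.1% and 23.8%. T/NK-like cells did not move together: 0.342% and 0.527% in the control line, 0.536% and 0.427% in hairpin 1, and 1.05% and 0.674% in hairpin 2, so they were higher in 1 of 3 lines. Mast/basophil-like cells had the same order of signs (0.105% and 0.172%, 0.318% and 0.197%, 0.432% and 0.257%), and in neither class did the difference between control and knockdown lines pass the test (interaction adjusted p = 0.884 and 0.855, edgeR). Dendritic-like cells numbered only 3 to 24 a library.

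T/NK-like cells numbered 26 to 80 a library, with 34748 to 207005 UMIs. Pdcd1 itself gave 5 and 6 UMIs (144 and 53.6 CPM) in the control line, 8 and 5 UMIs (89.9 and 93.8 CPM) in hairpin 1, and 7 and 22 UMIs (43.8 and 106 CPM) in hairpin 2, too few for the test. Macrophages gave 0 to 3 Pdcd1 UMIs a library from at least 1390 cells. Dendritic-like cells gave 0 and 8 UMIs, 2 and 1 UMIs, and 6 and 0 UMIs, which in the libraries with any was 50.2 to 123 CPM, a level like that of the T/NK-like cells. Ctla4, another inhibitory receptor of T cells, stood at 403 and 1108 CPM in the control line, 977 and 731 CPM in hairpin 1, and 1395 and 1068 CPM in hairpin 2. The control line moved against the hairpin lines, and the log2 difference over all pairs was 0.12 ± 0.30 (SE, adjusted p = 0.978, edgeR). Gzmb, the cytotoxic protease granzyme B, stood at 691 and 938, 427 and 844, and 938 and 662 CPM (log2 difference 0.27 ± 0.29). Cd8a, the co-receptor of cytotoxic T cells, stood at 403 and 26.8 CPM, 247 and 75.0 CPM, and 100 and 96.6 CPM, from 3 to 22 UMIs a library. After normalisation it was lower in 2 of 3 lines and level in hairpin 2 (0.01 on the log2 scale). Its log2 difference of -1.42 ± 0.50 (SE) had an adjusted p of 0.381 (edgeR). Cd3e, a subunit of the T-cell receptor complex, was lower in each line (115 and 53.6, 180 and 56.3, and 138 and 43.5 CPM) without passing the test (adjusted p = 0.381, edgeR). It was named for 1 sign in all 3 lines, which 27.5% of all genes tested in these cells had. The 17 T/NK markers together were also lower in 3 of 3 lines (5727 and 4504, 5313 and 5101, and 5353 and 3174 CPM), as were the 4 Y-linked host genes (460 and 357, 449 and 262, and 331 and 174 CPM), and their part was not tested.

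**Figure D2:**
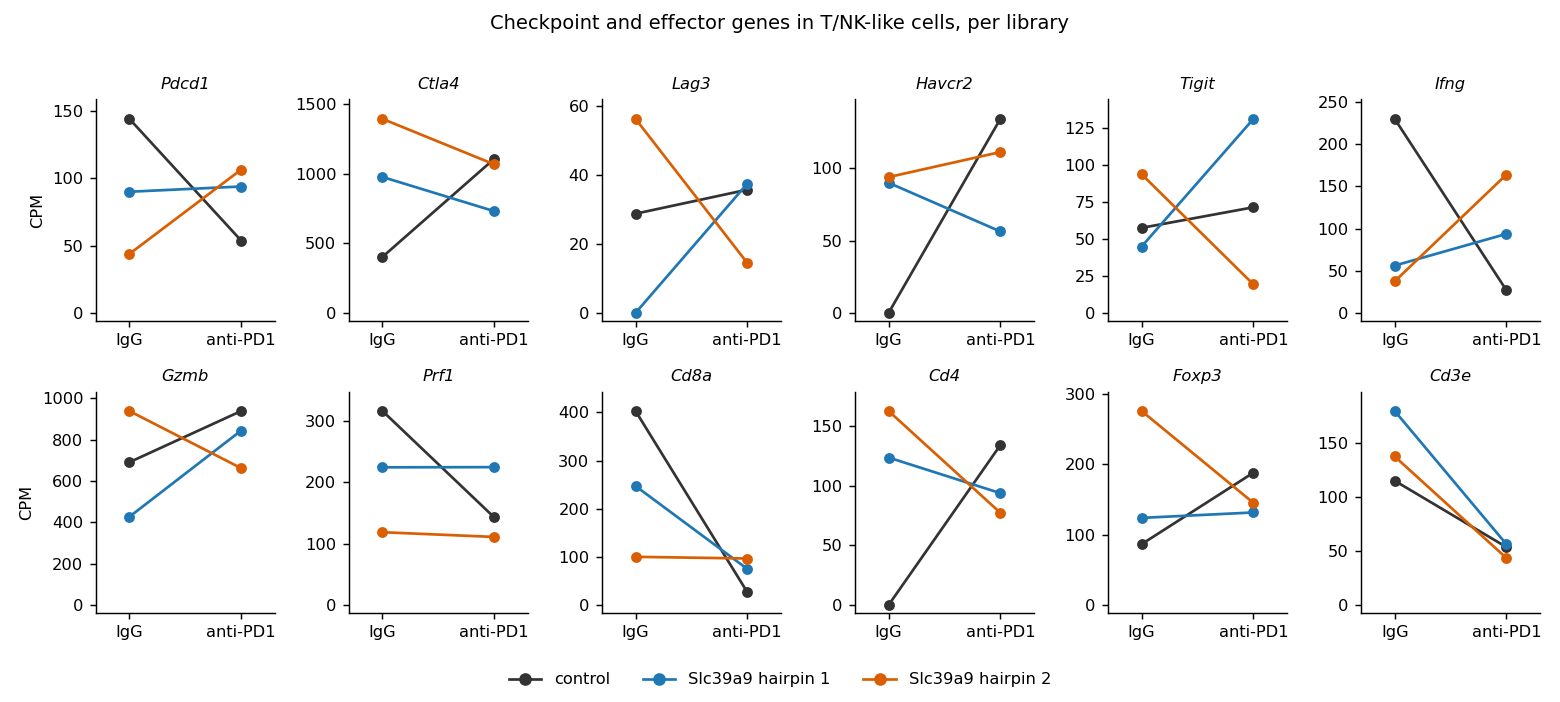
CPM (y axis, linear) of 12 checkpoint, effector and lineage genes in T/NK-like cells, with each line's IgG and anti-PD1 library joined. Of the 12, Cd8a and Cd3e lie lower with anti-PD1 in all 3 lines, Cd8a in hairpin 2 by little, and the points rest on 26 to 80 cells a library.

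Of the lists of T-cell genes, no member was called in these cells. None of the 14 tested members of the cytotoxic effector list, the 14 of the T-cell activation list, the 8 of the regulatory T-cell list and the 5 of the checkpoint list was called at an adjusted p under 0.05. Over all 2454 genes tested in T/NK-like cells, 8 were called (0.326%), 4 higher and 4 lower with anti-PD1 by the edgeR test. The 4 lower ones were all MHC class II genes and the 4 higher ones were Sparc, Cd63, Emp1 and Ank, described further on. No gene was called without the line block, 1 by DESeq2, and 0 when the hairpin 2 pair was left out.

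MHC class II genes were called lower with anti-PD1 in cluster 15, T/NK-like and neutrophil-like cells. H2-Aa, H2-Ab1 and H2-Eb1 encode chains of the class II molecules that show peptides to CD4+ T cells, and Cd74 encodes the invariant chain that guides their assembly. The 3 chain genes lie together on mouse chromosome 17 (mm10, GENCODE M21): H2-Ab1 at 34257689-34269419 and H2-Eb1 at 34305867-34316674, both on the plus strand, and H2-Aa at 34282744-34287823 on the minus strand. Since these genes moved together, the 300 bases around the start of H2-Aa and H2-Eb1 are shown, from 250 before to 50 after the start, taken from RefSeq (GRCm38.p6) and written 5′ to 3′ along the gene. Capitals mark the CCAAT box, searched as CCAAT and on the other strand as ATTGG, a short element of class II promoters.
H2-Aa, chr17:34287774-34288073, minus strand: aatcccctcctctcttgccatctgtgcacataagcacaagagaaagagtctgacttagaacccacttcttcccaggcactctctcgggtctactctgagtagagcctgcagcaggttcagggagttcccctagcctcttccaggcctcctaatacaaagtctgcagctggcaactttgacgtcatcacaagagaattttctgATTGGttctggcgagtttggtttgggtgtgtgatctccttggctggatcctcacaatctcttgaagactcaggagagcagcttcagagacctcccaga
H2-Eb1, chr17:34305617-34305916, plus strand: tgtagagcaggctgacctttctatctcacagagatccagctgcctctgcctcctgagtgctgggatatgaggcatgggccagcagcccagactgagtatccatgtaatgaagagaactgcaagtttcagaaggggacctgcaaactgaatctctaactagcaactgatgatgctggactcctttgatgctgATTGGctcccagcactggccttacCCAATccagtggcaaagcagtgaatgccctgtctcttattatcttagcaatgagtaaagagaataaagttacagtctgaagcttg
The motif is common, and 12289 of 32851 mouse promoters of that length (37.4%) hold it, so its presence is a description only. H2-Ab1 had no entry in the RefSeq table used here.

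In cluster 15, the cycling macrophages (led by Mki67, 40 to 182 cells a library), class II genes fell in each line. H2-Ab1 stood at 978 CPM with IgG and 72.8 CPM with anti-PD1 in the control line, 1539 and 738 CPM in hairpin 1, and 1245 and 441 CPM in hairpin 2. Every anti-PD1 library lay below every IgG library, and the log2 difference was -1.79 ± 0.24 (SE, adjusted p = 0.000367, edgeR). H2-Eb1 (-1.76 ± 0.27), Cd74 (-1.63 ± 0.26) and H2-Aa (-1.54 ± 0.27) fell as well, each lower in 3 of 3 lines, with adjusted p of 0.00211, 0.00368 and 0.0101 (edgeR). All 4 stayed called when any 1 of the 3 pairs was left out. The H2-Ab1 difference then lay between -2.38 and -1.24, the smallest without the control pair. In the control line with IgG, 1 of 40 cells held 52.5% of the summed class II UMIs, and without each library's top cell the sums were still lower with anti-PD1 in every line: 2026 and 208 CPM, 4531 and 2438 CPM, and 3797 and 1265 CPM. Of 9 tested class II genes, 4 were called lower and 0 higher, and the list's median log2 difference was -0.68 against 0.00 for all genes tested in this cluster.

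Also in cluster 15, 2 genes rose. Clec4d, a C-type lectin receptor of myeloid cells (chromosome 6, 123262111-123275265), stood at 93.2 and 249 CPM, 108 and 188 CPM, and 35.3 and 92.0 CPM, a log2 difference of 1.097 ± 0.19 (adjusted p = 0.00992, edgeR). Pdpn, the surface glycoprotein podoplanin, stood at 69.9 and 124, 73.3 and 149, and 27.7 and 101 CPM (1.16 ± 0.23). Both were higher in each line, and the groups overlapped for Clec4d and not for Pdpn. The 12 neutrophil markers, of which Clec4d is one, summed higher with anti-PD1 in 3 of 3 lines in cluster 15 (248 and 545, 170 and 265, and 171 and 184 CPM), and their part was not tested. These 6 called genes were 0.0858% of the 6996 tested, and 0 genes were called without the line block or by DESeq2. In the fit with the line block, 299 genes (4.27%) had an unadjusted p under 0.05 (edgeR).

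In the whole macrophage/monocyte-like class (clusters 0, 3 and 15) the class II genes did not pass the test. Of these clusters only cluster 15 was singled out for a main test of its own. Cd74 stood at 2046 and 2102 CPM in the control line, 3988 and 2823 CPM in hairpin 1, and 5215 and 4689 CPM in hairpin 2 (log2 difference -0.19 ± 0.08, adjusted p = 0.589, edgeR). Ciita, which encodes the master regulator of class II transcription, was lower in 3 of 3 lines (54.9 and 53.05, 70.3 and 40.03, 138 and 109 CPM), with a log2 difference of -0.37 ± 0.10 and an adjusted p of 0.309 (edgeR). In cluster 3, whose leading genes they are, the 4 class II genes together stood at 15220 and 15230 CPM, 25760 and 20320 CPM, and 29910 and 27590 CPM. In cluster 0, led by Cbr2, Fcrls and Mrc1, the sums were 1098 and 1282, 2804 and 1570, and 5466 and 4493 CPM.

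In T/NK-like cells H2-Aa fell from 230 to 35.8 CPM in the control line, from 157 to 18.8 CPM in hairpin 1 and from 294 to 48.3 CPM in hairpin 2. The groups did not overlap, and the log2 difference was -2.60 ± 0.46 (SE, adjusted p = 0.00421, edgeR). H2-Ab1 (-2.42), H2-Eb1 (-1.97) and Cd74 (-1.50) fell with it. These reads sat in few cells: in hairpin 1 with IgG, 133 of the 142 class II UMIs (93.7%) came from 1 of 27 cells. Without each library's top cell the sums were 1209 and 880 CPM in the control line, 107 and 136 CPM in hairpin 1, and 1127 and 264 CPM in hairpin 2, so that hairpin 1 was no longer lower. Macrophage markers in the same cells were higher with anti-PD1 in 3 of 3 lines (1669 and 3637, 9739 and 10090, 3171 and 4758 CPM over 15 genes), and their part in the result was not tested.

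Among neutrophil-like cells H2-Eb1 fell from 87.0 to 23.6 CPM, from 125 to 18.4 CPM and from 333 to 24.0 CPM, a log2 difference of -2.67 ± 0.46 (adjusted p = 0.00526, edgeR). The groups did not overlap. H2-Ab1 fell by 1.68 on the log2 scale. In hairpin 1 with IgG the 4 class II genes summed to 10 UMIs in 5 of 39 cells. The summed macrophage markers were also lower in 3 of 3 lines (2321 and 1973, 1151 and 675, 2811 and 2075 CPM), and their part in the result was not tested. Without the hairpin 2 pair neither gene was called (H2-Eb1: adjusted p = 0.339, edgeR), and H2-Ab1 was not called without the control pair either.

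Osteoclast-like cells went the other way without passing the test, since their summed class II level was 733 and 788 CPM, 426 and 1032 CPM, and 1692 and 2543 CPM. Cd74 there had a log2 difference of 0.75 ± 0.15 and an adjusted p of 0.0946 (edgeR). Dendritic-like cells, the specialised antigen-presenting cells, had 3903 and 4121, 8998 and 8530, and 5717 and 8783 CPM from too few cells for a test.

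**Figure D3:**
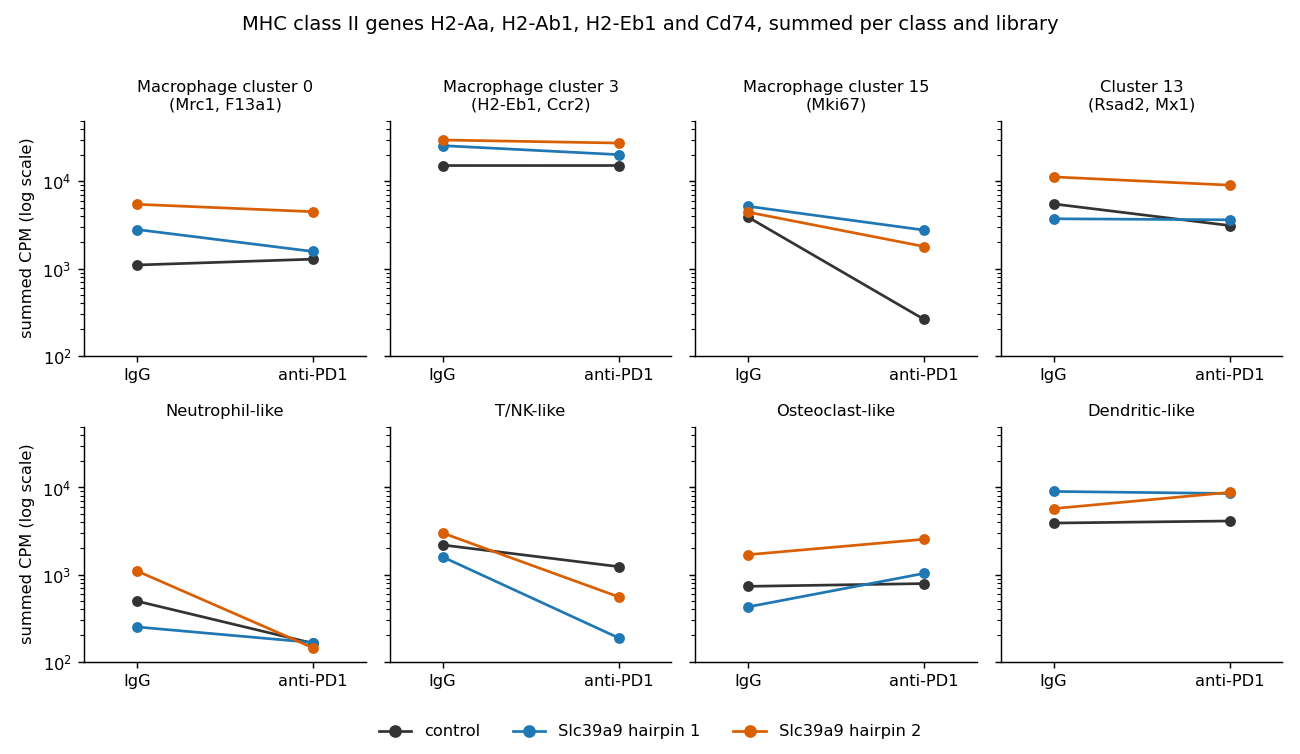
Summed CPM of H2-Aa, H2-Ab1, H2-Eb1 and Cd74 (y axis, log scale) in 8 host classes, with each line's IgG and anti-PD1 library joined. Lines fall in all 3 pairs in cluster 15, cluster 13, neutrophil-like and T/NK-like cells and rise in all 3 pairs in osteoclast-like cells.

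The macrophage/monocyte-like class was the best covered host class, with 1390 to 2319 cells and 5271900 to 7992540 UMIs a library. Of 11978 genes tested, 6 were called (0.0501%), 5 higher and 1 lower with anti-PD1. Fn1, the matrix protein fibronectin (chromosome 1, 71585520-71653200), stood at 766 and 878 CPM in the control line, 827 and 1128 CPM in hairpin 1, and 245 and 430 CPM in hairpin 2. Its log2 difference was 0.49 ± 0.08 (SE, adjusted p = 0.0352, edgeR). Mmp9, a matrix-degrading gelatinase (chromosome 2, 164940780-164955850), stood at 80.8 and 123, 10.1 and 12.7, and 21.6 and 30.02 CPM (0.54 ± 0.09). It is also on the neutrophil and osteoclast marker lists, and the 9 osteoclast markers summed higher in macrophages in 3 of 3 lines (412 and 520, 221 and 272, and 336 and 353 CPM), whose part was not tested. Lncpint, a long non-coding RNA on chromosome 6, stood at 122 and 83.2, 106 and 84.8, and 98.8 and 75.5 CPM, lower by 0.41 ± 0.07 with no overlap between groups. In Fn1 and Mmp9 the lines differed from each other by more than the treatments did, so these calls rest on the pairing by line.

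The other 3 called genes were haemoglobins: Hbb-bs by the rule for named genes, and Hba-a1 and Hba-a2, named after their values were seen. Hbb-bs stood at 4.70 and 102 CPM in the control line, 3.26 and 11.5 CPM in hairpin 1, and 2.09 and 3.34 CPM in hairpin 2 (log2 difference 3.35 ± 0.34). In the control line with anti-PD1, 1561 of the 1671 haemoglobin UMIs (93.4%) lay in 1 cell, and without it the sum over the 3 genes fell from 209 to 13.8 CPM. Without each library's top cell the sums were still higher with anti-PD1 in each line: 8.37 and 13.8, 3.58 and 21.0, and 3.99 and 5.84 CPM. In tumour-line cells they were then 1.98 and 4.45, 2.93 and 8.78, and 1.78 and 2.06 CPM. With the top cells, tumour-line cells of hairpin 1 had 27.8 and 11.6 CPM. Without the control pair Hbb-bs was not called (1.47, adjusted p = 0.156, edgeR).

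The calls in macrophages depended on the fit. No gene was called without the line block and none by DESeq2. In the fit with the line block, 912 genes (7.61%) had an unadjusted p under 0.05 (edgeR). Leaving out the hairpin 1, hairpin 2 or control pair gave 31, 42 and 16 called genes, which shared 6, 6 and 1 with the 6 above, the last being Fn1. In cluster 0 alone no gene and in cluster 3 alone 1 gene was called.

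Genes of glycolysis and the low-oxygen response leaned upward with anti-PD1 in macrophages, though none passed adjustment. Of 26 tested members of the list, 14 were higher in all 3 lines and 0 lower in all 3. The median log2 difference was 0.14 against 0.00 over all genes tested in the class, of which 29% had 1 sign in all 3 lines. As examples, named after their values were seen, Pgk1, a glycolytic kinase, stood at 627 and 685 CPM, 656 and 818 CPM, and 435 and 546 CPM (log2 difference 0.27 ± 0.06, adjusted p = 0.150, edgeR). Gapdh, the glycolytic dehydrogenase, stood at 1015 and 1072, 1104 and 1259, and 638 and 803 CPM (0.21 ± 0.06), and Ddit4, a stress-induced inhibitor of mTOR signalling, at 151 and 172, 70.4 and 81.1, and 99.6 and 142 CPM (0.31 ± 0.07). Cluster 15 showed the same signs in 12 of 20 tested members, with a median of 0.41. Its cells are part of the macrophage class, so the count is not independent. In T/NK-like cells 0 of 13 members were higher in all 3 lines.

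Cell-cycle genes of the G2 and M phases were higher in all 3 lines in 17 of 36 cases in the macrophage class (median log2 difference 0.16), and none was called. Within cluster 15, where the cycling cells sit, the same list had 1 of 36 members higher and 5 lower in all 3 lines. Over all genes tested in cluster 15, 25% had 1 sign in all 3 lines. The interferon-gamma response list had no shared direction in macrophages: 2 of 23 members were higher and 1 lower in all 3 lines, with a median of 0.01. Cxcl9, which draws T cells, stood at 18.5 and 17.0 CPM, 93.1 and 110 CPM, and 60.5 and 99.2 CPM (log2 difference 0.37 ± 0.10, adjusted p = 0.339, edgeR). Cd274, encoding PD-L1, stood at 53.7 and 48.8, 46.2 and 59.8, and 51.4 and 42.5 CPM, a log2 difference of 0.01 ± 0.10.

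Cluster 13 had 15 of 15 macrophage/monocyte markers above the other clusters, but none among its 10 leading genes, which include the interferon-induced Rsad2, Mx1, Oasl1 and Irf7 as well as Mmp12, an elastase of macrophages, and Ppbp, a platelet chemokine, and it is left unnamed (49 to 200 cells a library). Of 6018 genes tested, 10 were called (0.166%), 5 in each direction. Iigp1, an interferon-inducible GTPase, fell from 463 to 231 CPM in the control line, from 647 to 154 CPM in hairpin 1 and from 771 to 252 CPM in hairpin 2. The groups did not overlap, and the log2 difference was -1.52 ± 0.19 (SE, adjusted p = 0.000512, edgeR). Lpl, the lipoprotein lipase that frees fatty acids, fell from 413 to 175, from 196 to 59.0 and from 374 to 145 CPM (-1.39 ± 0.19), also without overlap. Fabp4, a fatty-acid carrier, and Mfge8, a bridge for uptake of dying cells, fell by 1.87 and 1.92 on the log2 scale, as did Csrp2 by 2.19. Of 20 tested genes of lipid handling and lysosomes, 2 were called lower and 0 higher, and 9 were lower against 3 higher in all 3 lines. Over all genes tested there, 26.9% had 1 sign in all 3 lines.

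Clec4e, a receptor for microbial glycolipids and dying cells that neighbours Clec4d on chromosome 6 (123281789-123289870), rose in cluster 13 from 213 to 369 CPM, from 115 to 334 CPM and from 109 to 295 CPM. Its log2 difference was 1.18 ± 0.19 (adjusted p = 0.0112, edgeR), and every anti-PD1 library lay above every IgG library. Slpi, a secreted protease inhibitor, stood at 149 and 331, 0 and 118, and 31.6 and 201 CPM (1.92 ± 0.33), and Errfi1, a feedback inhibitor of EGF receptor signalling, at 155 and 330, 170 and 378, and 135 and 197 CPM (0.93 ± 0.19). AA467197 rose by 1.085. Saa3, an acute-phase protein named after its values were seen, was called higher at 1.33 while hairpin 1 had 4.25 and 0 CPM. Neutrophil markers summed higher with anti-PD1 in 3 of 3 lines in this cluster (2328 and 2567, 966 and 1878, 1539 and 2433 CPM), and their part in these results was not tested. Without the hairpin 2 pair 0 genes were called, and without the hairpin 1 and control pairs 16 and 47, of which 8 each were among the 10. Without the line block 0 genes were called. In the fit with the block, 317 genes (5.27%) had an unadjusted p under 0.05 (edgeR).

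**Figure D4:**
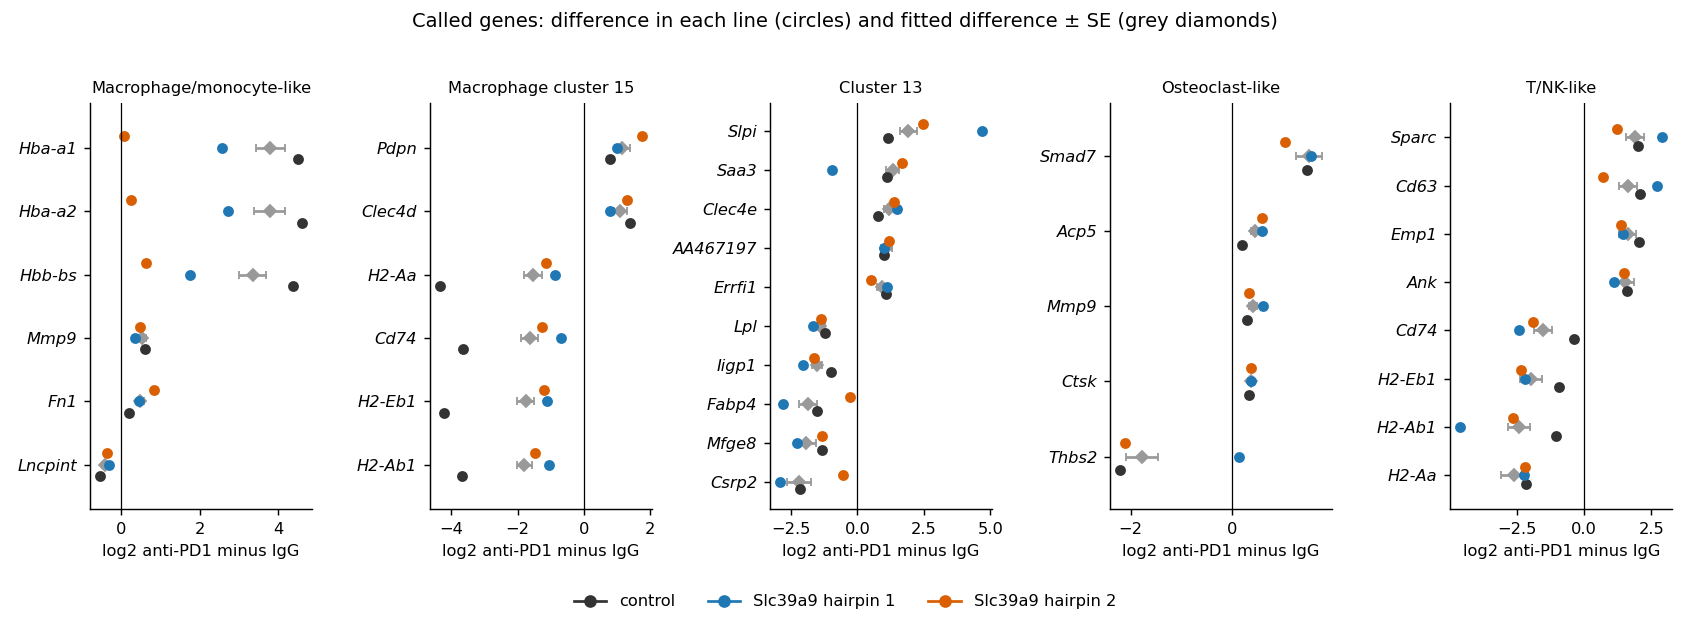
Log2 difference, anti-PD1 minus IgG (x axis), of each called gene in 5 host classes. Circles are the 3 lines and grey diamonds the fitted difference with its SE, and the class II genes lie left of 0 in all 3 lines in cluster 15 and T/NK-like cells.

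Osteoclast-like cells, named from bone-resorbing cell markers, numbered 42 to 171 a library, and 5 of 7941 genes tested were called (0.063%). Ctsk, the collagen-degrading cathepsin K (chromosome 3, 95499256-95509362), stood at 21140 and 25600 CPM, 18410 and 23020 CPM, and 21340 and 26880 CPM. Every anti-PD1 library lay above every IgG library, and the log2 difference was 0.36 ± 0.05 (SE, adjusted p = 0.0396, edgeR). Acp5, the acid phosphatase that stains osteoclasts (0.44 ± 0.07), and Mmp9 (0.40 ± 0.07) were higher in each line with that adjusted p too. These 3 genes helped to name the class, and the 9 osteoclast markers summed to 48980 and 56970, 40820 and 54390, and 44070 and 57030 CPM. Smad7, an inhibitor of TGF-beta signalling, stood at 33.0 and 93.8, 29.2 and 88.5, and 28.5 and 60.4 CPM (1.51 ± 0.25). Thbs2, a matrix protein among the tumour-enriched genes described further on and named after its values were seen, was called lower at -1.78, with 16.1 and 17.3 CPM in hairpin 1. None of these was called when the control pair was left out, without the line block, by DESeq2, with doublets kept or with a mitochondrial limit of 10%. In the main fit, with the line block, 389 genes (4.9%) had an unadjusted p under 0.05 (edgeR).

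In endothelial-like, neutrophil-like and T/NK-like cells, RNA typical of the tumour-line cells differed between treatments. It was measured over 98 tumour-enriched genes, each over 100 CPM in tumour-line cells and at least 10 times its level in macrophages and 5 times that in endothelial-like cells. Of the genes called, 11 of 45 in endothelial-like, 8 of 21 in neutrophil-like and 1 of 8 in T/NK-like cells belonged to these 98, of which 35, 82 and 20 were among the genes tested there. In osteoclast-like cells it was 1 of 5 (50 tested), and in macrophages 0 of 6 (98 tested). They made up 0.640% of endothelial UMIs with IgG and 0.162% with anti-PD1 in the control line, 0.816% and 0.381% in hairpin 1, and 0.502% and 0.130% in hairpin 2. In neutrophil-like cells the shares ran the other way, 1.02% and 1.54%, 0.763% and 1.84%, and 0.964% and 2.30%, and in T/NK-like cells they were 0.463% and 1.19%, 0.158% and 0.407%, and 1.11% and 1.45%. Macrophages kept to 0.124% to 0.224% in all libraries, a low level that the choice of these genes required. Neutrophil-like and T/NK-like cells had no such limit, so levels cannot be compared between classes. The median neutrophil-like cell did not show the rise, at 0.384% and 0.353%, 0.265% and 0.273%, and 0.500% and 0.453%, so a minority of cells carried it. In hairpin 1 with anti-PD1, 1 neutrophil-like cell held 23.3% of the UMIs of its class. The median T/NK-like cell had 0.425% and 0.248%, 0.162% and 0.177%, and 0.335% and 0.363%.

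**Figure D5:**
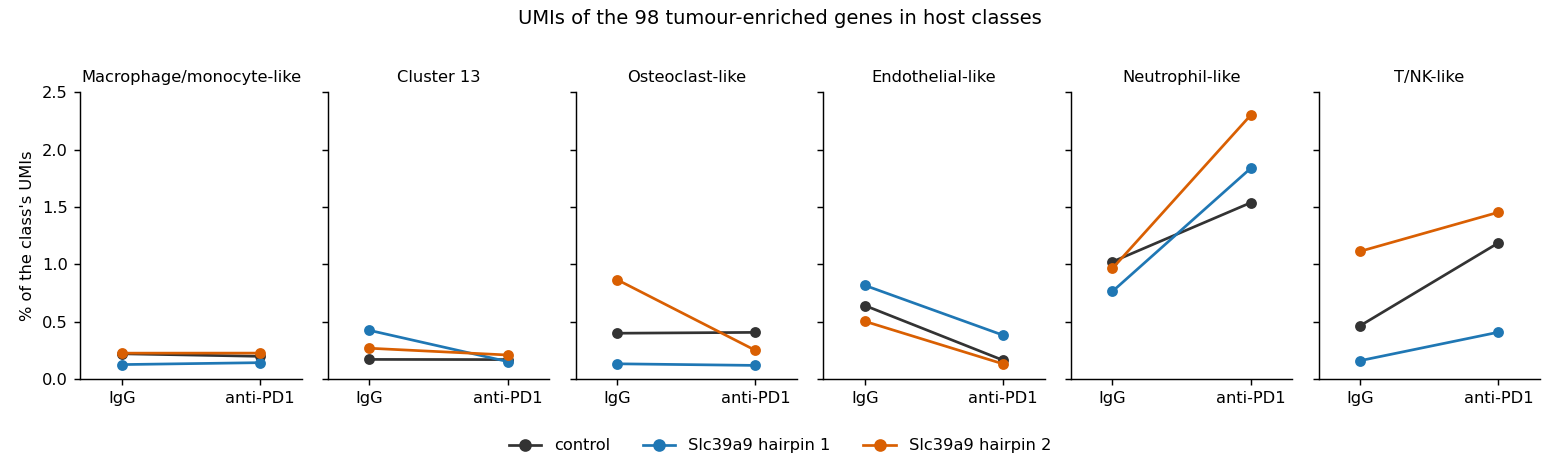
UMIs of the 98 tumour-enriched genes as a percentage of each class's UMIs (y axis), with each line's IgG and anti-PD1 library joined. The share falls in 3 of 3 lines in endothelial-like cells and rises in 3 of 3 in neutrophil-like and T/NK-like cells. It is at most 0.224% in macrophages, where the choice of the genes required a low level.

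Endothelial-like cells (29 to 91 a library) had 45 of 5900 genes called (0.763%), 5 higher and 40 lower. Spp1, the secreted matrix protein osteopontin (chromosome 5, 104435118-104441050), fell from 1285 to 144 CPM in the control line, from 2213 to 200 CPM in hairpin 1 and from 2163 to 134 CPM in hairpin 2. The groups did not overlap, and the log2 difference was -3.56 ± 0.17 (SE, adjusted p = 6.91e-09, edgeR). Grem1, a secreted BMP antagonist and itself tumour-enriched, fell from 1383 to 81.4, from 422 to 44.4 and from 343 to 52.6 CPM (-3.41 ± 0.23). The heparan sulphate proteoglycans Sdc4 (-2.70) and Gpc1 (-2.59), the endocytic receptor Lrp1 (-2.54), the scavenger receptor Colec12 (-2.81), the copper carrier Cp (-2.64), the cadherin Cdh6 (-2.53) and Acpp (-3.15) and Ahnak2 (-2.52) fell in each line. Grem1, Gpc1, Colec12, Cp and Cdh6 were among the 98 tumour-enriched genes. When cells with more than 1% tumour-enriched UMIs were left out, which removed 0 to 7 cells a library, no gene was called. Spp1, which is not among the 98, then had a log2 difference of 0.13. These cells were picked by their counts of the 98 genes, so for those genes the loss was in part fixed by the choice. Without the hairpin 1 pair 10 genes were called, and without the line block 4.

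Genes called higher in endothelial-like cells included Ctgf, a matrix protein induced by mechanical stress, at 9.54 and 37.6 CPM, 40.03 and 244 CPM, and 11.5 and 50.4 CPM (log2 difference 2.35 ± 0.34, adjusted p = 0.00228, edgeR). Ptn, the growth factor pleiotrophin, Hspb1, a small heat-shock protein, and 8430408G22Rik rose by 1.70, 0.88 and 0.75. The interferon lists had medians of 0.61 over 12 tested interferon-gamma response genes and 0.59 over 10 tested type I interferon genes. For the interferon-gamma list only hairpin 2 had a median above 0. The median of all genes tested was 0.00. In each list 4 members were higher in all 3 lines, against 29.4% of all genes with 1 sign in all 3 lines. The lines were unequal: the interferon-gamma medians were -0.14 in the control line, -0.02 in hairpin 1 and 1.15 in hairpin 2. Rsad2 was the 1 member called (2.24 ± 0.42, named after its values were seen), at 44.5 and 75.1, 3.64 and 0, and 48.3 and 406 CPM, so that hairpin 1 had the opposite sign and hairpin 2 the largest difference.

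Neutrophil-like cells (39 to 512 a library, 39957 to 849052 UMIs) had 21 of 4564 genes called (0.46%), 19 higher and 2 lower, the latter the class II genes above. Akr1c18, a steroid-metabolising reductase (chromosome 13, 4132615-4150654), rose from 90.6 to 413 CPM in the control line, from 75.1 to 743 CPM in hairpin 1 and from 162 to 408 CPM in hairpin 2. The groups did not overlap, and the log2 difference was 2.10 ± 0.33 (SE, adjusted p = 0.00325, edgeR). It was called with any 1 pair left out, and it was itself among the 98 tumour-enriched genes, as were Ntn4, Mmp10 and Rgs16. The secreted guidance protein Ntn4 (2.21), the surface antigen Ly6a (1.91), the lysosomal protease Ctsl (1.83), the actin-binding Tmsb10 (1.81), Csrp2 (1.78), the calcineurin regulator Rcan1 (1.70), the stromelysin Mmp10 (1.69), the G-protein regulator Rgs16 (1.67) and the matrix protein Cyr61 (1.56) rose as well. Without cells above 1% tumour-enriched UMIs, 2 genes were called, 1 higher and 1 lower. For genes among the 98 that loss was in part fixed by how the cells were picked. Ribosomal protein genes were higher in all 3 lines in 17 of 18 cases (median log2 difference 0.73) and mitochondrially encoded genes in 9 of 10 (0.82), against 43.6% of all genes with 1 sign in all 3 lines. The 12 neutrophil markers summed lower with anti-PD1 in 3 of 3 lines (22190 and 21030, 31330 and 18910, 25540 and 14740 CPM), and their part was not tested. Without the line block 4 genes were called, and without the hairpin 1, hairpin 2 or control pair 10, 6 and 107.

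Of the 4 genes called higher in T/NK-like cells, Ank was among the 98. Sparc, a secreted matrix protein, stood at 173 and 724 CPM, 78.6 and 713 CPM, and 632 and 1440 CPM (log2 difference 1.91 ± 0.34, adjusted p = 0.00421, edgeR). Cd63 (1.65), Emp1 (1.62) and Ank (1.53) were higher in each line as well. Without cells above 1% tumour-enriched UMIs, which were 0 to 10 a library, 2 genes were called in T/NK-like cells, both lower. Ank counts towards the UMIs that picked these cells, so its loss was in part fixed by the choice.

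For gene tests, clusters 6, 8 and 17 were left out of the tumour-line cells, because their leading genes held markers of another class. The shares given above include them, at 3320 to 5524 cells a library, and cluster 6 alone was 34.3% and 38.3% of the tumour-line cells of hairpin 1. Cluster 17, led by Saa3 and with Slpi among its leading genes, is thus outside the values that follow. The remaining tumour-line cells showed no called gene among 15109 tested (0%), with the smallest adjusted p at 0.558 (edgeR), although this class had 1913 to 4600 cells and 28497196 to 64214055 UMIs a library. At an unadjusted p under 0.05 there were 919 genes (6.08%), DESeq2 called 21, and leaving out the control pair gave 42. Crabp2, a retinoic-acid carrier, was higher in each line (565 and 707, 374 and 473, 400 and 543 CPM), as was Igfbp7, a secreted IGF-binding protein (116 and 138, 54.7 and 93.2, 98.4 and 138 CPM). Slpi stood at 39.8 and 84.9, 3.92 and 20.4, and 16.2 and 31.2 CPM. Saa3 lay lower in each line, at 27.4 and 21.1, 42.1 and 4.32, and 62.5 and 42.0 CPM, and so did Nefm, a neurofilament subunit, at 55.4 and 48.4, 40.5 and 29.7, and 47.4 and 33.9 CPM. Cluster 5, led by Nefl and Nefm, held 13.7% and 14.0% of all tumour-line cells in the control line, 9.10% and 3.46% in hairpin 1, and 17.2% and 11.1% in hairpin 2, and the part of cluster make-up in the Nefm values was not tested. These 5 genes had adjusted p of 0.795 (edgeR). They were named for 1 sign in all 3 lines, which 4372 of the 15109 genes (28.9%) had, so that agreement was fixed by the choice.

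Type I interferon genes in tumour-line cells leaned upward in the hairpin lines without passing the test. Of 22 tested type I interferon genes 9 were higher in all 3 lines, and the median log2 difference of 0.42 (0.00 for all genes tested) hid unequal lines, with medians of -0.00 in the control line, 0.31 in hairpin 1 and 0.73 in hairpin 2. Of 20 tested genes of the MHC class I pathway 4 were higher and 0 lower in all 3 lines, with a median of -0.01 in the control line. The interferon-gamma response list had 5 of 23 higher and 1 lower, with a control-line median of -0.22. Over all genes tested in these cells, 28.9% had 1 sign in all 3 lines. Neither the MHC class I nor the interferon-gamma list exceeded that share. For H2-K1, a heavy chain of MHC class I, the CPM were 39.99 and 47.5, 174 and 212, and 73.3 and 81.3 (log2 difference 0.23 ± 0.05, adjusted p = 0.795, edgeR). Among tumour-line cells, those of cluster 16, whose leading genes are Ifit3 and Ifit1, accounted for 1.38% and 1.46% in the control line, 1.14% and 1.14% in hairpin 1, and 1.74% and 4.25% in hairpin 2, so that its share differed in 1 line. Cd274 stayed at 1.64 to 3.42 CPM in all 6 libraries. Macrophage and neutrophil markers in these cells also summed higher with anti-PD1 in 3 of 3 lines (macrophage: 70.1 and 72.1, 54.4 and 73.9, 53.8 and 67.2 CPM), and their part was not tested.

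Whether the response to anti-PD1 differed between the control and the knockdown lines was tested as an interaction, with 1 control line against 2 hairpin lines. This fit held genotype and treatment without the line as a block, so it was not paired. Differences in level between the 2 hairpin lines went into its spread. The control arm has no replicate spread of its own, so its spread is taken to be that of the hairpin lines. In 7 of 8 classes no gene was called, with 38 to 133 genes at an unadjusted p under 0.05 in them, and in cluster 15 there were 4, given in the closing part. There the fall of H2-Eb1 was deeper in the control line (-4.20 on the log2 scale) than in hairpin 1 (-1.11) and hairpin 2 (-1.19).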

How the data were processed

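Per the submitters' processing notes, the authors made the deposited UMI counts per gene and cell barcode with Cell Ranger 7.0.1 on mm10; strand use and other settings are not given in the sources used here. Barcodes with at least 500 UMIs, 300 genes and at most 20% mitochondrial UMIs were kept. All of them were clustered with scanpy 1.11.5 (2000 variable genes, 30 components, 15 neighbours, resolution 1). Scrublet calls, made in each library at an assumed rate of 0.06, were removed after clustering. Clusters were named from fixed marker lists. A class was tested where each library held at least 20 of its cells. Of the macrophage clusters, cluster 15 had a main test of its own besides that of the whole class. Clusters 0 and 3 also met the limit, with at least 800 and 471 cells a library, and were run alone only as alternatives.

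Summed raw counts of each class in each library were tested with edgeR 4.0.16 (R 4.3.3) by the quasi-likelihood test, with TMM scaling, the low-count filter of edgeR, the line as a block and 2 residual degrees of freedom. The interaction fit held genotype, treatment and their interaction, without the line as a block. Benjamini-Hochberg adjusted p under 0.05 over all genes of a class counted as called. CPM values are unnormalised shares of the class sum. Log2 differences over all pairs are those fitted by the edgeR model with TMM scaling, and their SE was derived from the F statistic. Log2 differences of single lines use TMM and a prior count of 2. DESeq2 1.42.0 was an alternative. Pairing follows the implanted cell line. Deviations of the 2 libraries of a line correlated at 0.52 to 0.67 in tumour-line cells, 0.44 to 0.61 in macrophages and -0.00 to 0.08 in neutrophil-like cells. They were also low in cluster 15 (0.07 to 0.15) and osteoclast-like cells (0.06 to 0.17). The ranges were 0.25 to 0.38 in cluster 13, 0.20 to 0.27 in T/NK-like and 0.14 to 0.36 in endothelial-like cells.

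Named were up to 10 called genes a direction and class with the largest change, a mean of at least 20 CPM and 1 sign in all pairs, in classes with under 10 calls also 6 uncalled genes a direction with the largest smallest paired difference, and a fixed list of checkpoint, interferon and antigen-presentation genes. Members and lists were chosen with earlier results of these data known. On simulated counts, the test recovered 87% of 2-fold and 96% of 4-fold changes in the macrophage comparison (11978 genes), 19% and 91% in neutrophil-like cells (4564 genes), and 78% and 95% in tumour-line cells (15109 genes). The same simulations, with 100 changed genes at each fold, also gave 17, 6 and 21 false calls. In all 3 the false calls were a larger share of the calls than the threshold of 0.05. The adjustment depends on how many genes change, and the real data gave 6, 21 and 0 calls. The recovery rates therefore need not hold for the real comparisons. Intervals cover counting error only.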

Additional observations from a re-analysis of the deposited data

Results flagged for a closer look

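In cluster 15, the cycling macrophages, the interaction term of the edgeR fit was past the threshold for 4 genes. It sets 1 control line against 2 hairpin lines, so the control arm has no replicate spread and is assumed to vary like the hairpin lines. The line was not a block in this fit, so the test was not paired. The effect in the knockdown lines minus that in the control line was 4.12 on the log2 scale for Tm4sf1 (adjusted p = 0.0154), with differences of -2.46 in the control line, 2.15 in hairpin 1 and 0.61 in hairpin 2. For Sparc it was 2.88 (adjusted p = 0.0296, edgeR), from -2.06, 0.97 and 0.38. The 98 tumour-enriched genes in cluster 15 had the same signs, at 1883 and 1483 CPM in the control line, 857 and 1708 CPM in hairpin 1, and 1462 and 1818 CPM in hairpin 2, and their part was not tested. H2-Eb1 had 3.17 (adjusted p = 0.0154, edgeR) and Cd74 had 2.74 (adjusted p = 0.0164, edgeR), both lower in all 3 lines and lowest in the control line. The control pair had 40 and 68 cells, and 1 of the 40 held 52.5% of the class II UMIs.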

How the results depend on the processing

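The counts of called genes depended on the fit more than the direction of single genes did. Over all alternatives, values of called genes stayed called in 679 cases, kept their direction without passing the threshold in 560 and reversed in 20. The no-filter, DESeq2, scaling, doublet, mitochondrial, clustering, block and left-out-pair alternatives were planned, while thinning, leaving out host cells with over 1% tumour-enriched UMIs, single macrophage clusters and all tumour-line clusters were added after seeing the data. The cause of each change was not tested.

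In the order tumour-line, macrophage, cluster 15, cluster 13, neutrophil, T/NK, osteoclast and endothelial, DESeq2 called 21, 0, 0, 3, 12, 1, 0 and 16 genes, and no filter on low counts gave 28, 80, 26, 32, 34, 14, 49 and 151. Without the line as a replicate block (the pairing by line), edgeR called 0 in macrophages, clusters 15 and 13, T/NK and osteoclast-like cells, and 4 each in neutrophil and endothelial-like cells. With genotype in place of line these became 3 and 9, the others again 0. Resolution 0.5 gave 1 in tumour-line, 3 in macrophage, 140 in neutrophil and 0 in osteoclast-like cells, and all tumour-line clusters gave 1. Doublets kept gave 3, 10 and 0 in macrophage, neutrophil and osteoclast-like cells. A 10% mitochondrial limit gave 0 in osteoclast-like cells, and RLE scaling 15 in T/NK-like cells. Without host cells of over 1% tumour-enriched UMIs the counts were 3 in macrophages, 14 in cluster 15, 2 in neutrophil, 2 in T/NK, 0 in osteoclast and 0 in endothelial-like cells. Thinned cells gave 3, 3, 6, 1, 0, 0 and 21 from macrophage to endothelial in that order. Cluster 0 alone gave 0 and cluster 3 alone 1. The interaction without a filter called 11, 22, 4, 3, 3, 21 and 9 from macrophage to endothelial; without replicate 1 or 2 it leaves no residual degrees of freedom and was not run.

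Leaving out 1 line gave 0 to 42 called genes in tumour-line cells, 16 to 42 in macrophages, 8 to 23 in cluster 15, 0 to 47 in cluster 13, 6 to 107 in neutrophil, 0 to 19 in T/NK, 0 to 39 in osteoclast and 10 to 51 in endothelial-like cells. Mean log2 share ratios then ran from -0.13 to -0.07 for tumour-line cells, 0.05 to 0.16 for macrophages, 0.40 to 0.50 for cluster 13, 0.63 to 1.12 for cluster 22, 0.38 to 0.69 for neutrophils, -0.48 to 0.15 for T/NK, 0.03 to 0.56 for osteoclasts, 0.04 to 0.36 for endothelial, -0.01 to 0.35 for fibroblast, -0.72 to 0.01 for mast, 0.04 to 1.42 for dendritic and 0.21 to 0.50 for mixed cells. Of host cells alone, the macrophage ratio was -0.0418 and that of cluster 13 0.32.

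Reversed without the cells of over 1% tumour-enriched UMIs were neutrophil Grem1 (-0.0634) and neutrophil Ank (-0.18), Ank (-0.0866) in T/NK, Thbs2 (0.37) in osteoclast, and in endothelial-like cells Spp1 (0.13), Grem1 (0.15), Cd44 (0.033), Hspa4l (0.0182), S100a6 (0.0058), endothelial Cd63 (0.0628), Mt1 (0.19), Ero1l (0.36), Dhrs1 (0.37), Crabp1 (0.10), Timp2 (0.0392), Ctsl (0.0012), Etv1 (0.0676) and Ank (0.0385). Of the genes so reversed, Grem1, Ank, Thbs2 and Crabp1 were among the 98 whose counts picked the cells. Their change was therefore in part fixed by the choice. Thinning reversed Dkk2 (-0.13) and Ank (-0.17) in neutrophils. Depth limited T/NK and neutrophil-like cells most, with sums down to 34748 and 39957 UMIs a library.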
